A study of Mus musculus with 6 samples.

Results

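The genes described here are the TGF-beta ligands Tgfb1, Tgfb2 and Tgfb3, the receptors Tgfbr1, Tgfbr2 and Tgfbr3, the intracellular mediators Smad2, Smad3 and Smad7, and Tgfbi, a secreted matrix protein named for its induction by TGF-beta. They were chosen by name, with earlier results of these data known. Each of these 10 symbols was found among the 14766 genes to which the deposited reads were assigned. Mvt1 is a carcinoma cell line of FVB/N mice, derived from a mammary tumor that carried Myc and Vegf transgenes. Its cells were stained for the surface protein CD24 and sorted into a CD24- and a CD24+ group, both grown as adherent cells in DMEM with fetal bovine serum, and RNA was taken from 3 plates of each group. The comparison asks how the RNA of CD24+ cells differed from that of CD24- cells. The sorted groups came from 1 cell line and no repeat of the sort is described, so a difference linked to CD24 cannot be told apart from any other difference between the sorted cells, and the replicate spread is that between plates.

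TGF-beta ligands are secreted in a latent form, bound to their own propeptide and often to a latent TGF-beta binding protein in the matrix. Once freed, a ligand binds the type II receptor Tgfbr2, which recruits and phosphorylates the type I receptor Tgfbr1, while the coreceptor Tgfbr3 (betaglycan) presents ligand and is needed most for Tgfb2. Tgfbr1 phosphorylates Smad2 and Smad3, which join Smad4 and act on genes in the nucleus, and Smad7 is induced in turn and blocks the receptor. In mammary epithelium the pathway is known both for holding back growth and for driving the epithelial to mesenchymal transition.

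The libraries held 9046025 to 25692147 mapped reads, of which 6491833 to 19100844 were assigned to genes. CD24+ replicate 1 was the shallowest. Across genes, log2 CPM of CD24- replicate 3 had a correlation of 0.987 and 0.986 with CD24- replicates 1 and 2, which had 0.995 with each other, and the CD24+ pairs had 0.9875 to 0.993. CD24- replicate 3 was thus the CD24- library farthest from the others of its group. Cd24a, the gene of the sorted marker, had 12.1, 11.5 and 6.99 CPM (edgeR's depth-scaled count, relative to each library's gene reads after TMM scaling) in CD24- replicates 1, 2 and 3 and 73.3, 85.5 and 72.5 CPM in CD24+ replicates 1, 2 and 3. Of 5 luminal markers, Krt8, Krt18 and Krt19 were lower in CD24+ cells. Epcam and Cdh1 had 6 and 2 assigned reads in all libraries together, so Epcam and Cdh1 were nearly unread in both groups. Summed luminal markers were 1847 to 2040 CPM in CD24- and 759 to 902 CPM in CD24+ libraries.

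Of the 10 genes, 9 passed the filter on low counts and were tested with edgeR's quasi-likelihood method. In CD24+ cells Tgfb2, Tgfbr1, Tgfbr2 and Smad3 were higher and Tgfb1 was lower, while Tgfb3, Tgfbr3, Smad2 and Smad7 did not pass at an adjusted p of 0.05 over all genes. Thus 5 of 9 were called, where 46.1% of all 11125 genes tested were called, 23.8% as higher and 22.3% as lower. The groups did not overlap for the same 5 genes of the 9, and they did not overlap for 57.3% of all genes tested. Neither share of the members stands far from its background. Across all genes tested the median log2 fold change was 0.02.

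**Figure D1:**
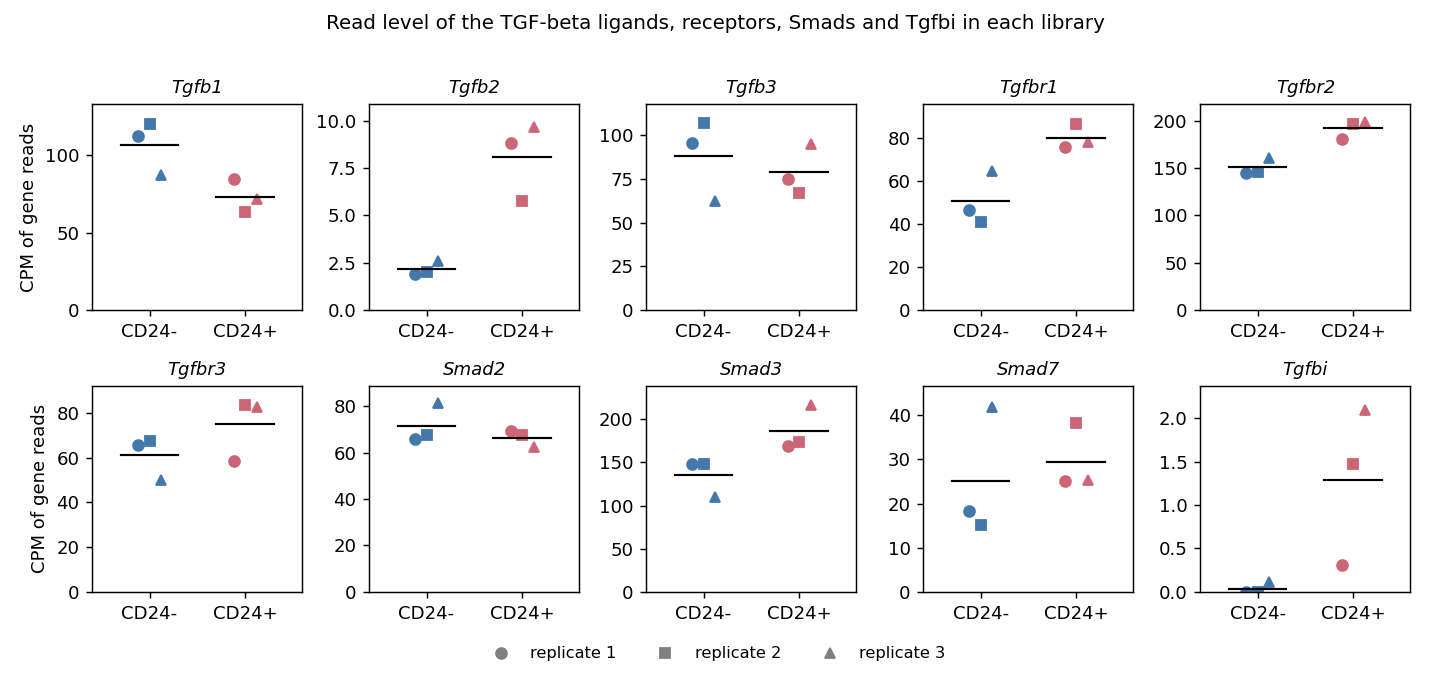
Read level (CPM, each panel from 0 on its own scale) of the 10 genes in the CD24- (blue) and CD24+ (red) libraries, with a marker shape for each replicate and a line at the mean of the 3 libraries. Tgfb2 and Tgfbr1 lie higher and Tgfb1 lower in every CD24+ library, and CD24- replicate 3 sits apart for Smad7 at 41.9 CPM.

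Among the ligands, Tgfb2 rose and Tgfb1 fell in CD24+ cells. Tgfb1, the ligand most widely made in adult tissues, lies on chromosome 7 of GRCm38 (chr7:25687002-25705077, plus strand), and its main GENCODE transcript has 7 exons. It had 112, 120.2 and 87.3 CPM in CD24- replicates 1, 2 and 3 and 84.8, 63.2 and 71.6 CPM in CD24+ replicates 1, 2 and 3. Each CD24- library lay above each CD24+ library, with the smallest gap between CD24- replicate 3 and CD24+ replicate 1. In edgeR this was a log2 fold change of -0.56 ± 0.14 (SE; Benjamini-Hochberg adjusted p = 0.00727), a level 1.47-fold lower. In bulk RNA fewer cells that use a gene and less of its RNA per cell cannot be told apart.

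Tgfb2, the ligand that depends most on the coreceptor, lies on chromosome 1 (chr1:186622792-186705989, minus strand). It had 1.89, 1.99 and 2.59 CPM in CD24- replicates 1, 2 and 3 and 8.81, 5.76 and 9.69 CPM in CD24+ replicates 1, 2 and 3. The groups were well apart, although the values rest on only 18 to 23 reads in a CD24- library and 56 to 185 in a CD24+ library. Tgfb2 had the largest difference of the tested members, with a log2 fold change of 1.90 ± 0.27 (SE; adjusted p = 2.35e-04, edgeR), a level 3.72-fold higher.

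Tgfb3, the third isoform, lies on chromosome 12 (chr12:86056745-86079041, minus strand) and had 95.6, 107 and 62.3 CPM in CD24- replicates 1, 2 and 3. In CD24+ replicates 1, 2 and 3 it had 74.9, 66.8 and 95.0 CPM. Both the highest and the lowest value were from CD24- libraries, so the groups overlapped. The log2 fold change of -0.16 did not pass (adjusted p = 0.506, edgeR), and its 95% interval ran from -0.58 to 0.26. It was -0.36 without CD24- replicate 3 (adjusted p = 0.0551) and -0.34 without CD24+ replicate 3, and it was -0.10, -0.0013 and -0.052 without CD24- replicate 1, CD24- replicate 2 and CD24+ replicate 2.

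The starts of the 2 ligand genes that moved in opposite directions are shown because they differ in composition. Both are RefSeq windows on GRCm38.p6, 250 bases before and 50 after the start site, written 5′ to 3′ on the strand of the gene, and entries were found for 6 of the 10 genes. Capitals mark matches on either strand to GGGCGG (Sp1 box) in Tgfb1, at chr7:25686752-25687051, and to CACGTG (E-box) and the core promoter box TATAAA in Tgfb2, at chr1:186705940-186706239. None of the marked matches overlaps another.
Tgfb1: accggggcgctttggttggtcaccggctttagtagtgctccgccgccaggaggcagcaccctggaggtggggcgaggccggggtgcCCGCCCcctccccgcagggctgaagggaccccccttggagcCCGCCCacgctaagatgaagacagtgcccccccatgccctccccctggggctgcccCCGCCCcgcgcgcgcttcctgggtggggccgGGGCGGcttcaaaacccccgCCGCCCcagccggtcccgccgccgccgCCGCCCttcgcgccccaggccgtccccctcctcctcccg
Tgfb2: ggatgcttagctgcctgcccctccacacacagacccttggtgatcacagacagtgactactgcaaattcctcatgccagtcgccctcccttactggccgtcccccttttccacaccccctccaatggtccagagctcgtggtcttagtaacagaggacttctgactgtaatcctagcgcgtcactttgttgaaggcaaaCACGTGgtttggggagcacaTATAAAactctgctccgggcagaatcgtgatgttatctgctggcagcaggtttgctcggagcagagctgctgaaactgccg
The Tgfb1 window was 77% G and C and held 6 Sp1 boxes, while the Tgfb2 window was 54.3% G and C and held none. The Tgfb2 window held 1 TATAAA box, 31 bases before the start site, and 1 E-box, 51 bases before it, and the Tgfb1 window held neither. Among 32851 RefSeq windows of the same length the median G and C content was 52.7%, and 35.7% held an Sp1 box, 13.6% a TATAAA box and 7.15% an E-box. The short Smad box CAGAC was matched 2 times in the Tgfb2 window and not in that of Tgfb1, and 49.6% of all windows held it. Neither window held the Smad palindrome GTCTAGAC or the CRE TGACGTCA, which 0.213% and 1.79% of all windows held. These are matches of letters, and binding of a factor was not measured.

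Of the receptors, Tgfbr1 and Tgfbr2 were higher in CD24+ cells. Tgfbr1, the type I receptor kinase (chr4:47353222-47414931, plus strand), had 46.6, 40.9 and 64.7 CPM in CD24- replicates 1, 2 and 3 and 75.5, 86.3 and 77.8 CPM in CD24+ replicates 1, 2 and 3. The groups did not overlap, and CD24- replicate 3 came closest to the CD24+ libraries. The difference was 0.66 ± 0.15 on the log2 scale (SE; adjusted p = 0.00457, edgeR).

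Tgfbr2, the type II kinase that binds ligand first (chr9:116084293-116175360, minus strand), had 144, 146 and 161 CPM in CD24- replicates 1, 2 and 3 and 181, 196 and 199 CPM in CD24+ replicates 1, 2 and 3. Values within a group lay close together, and every CD24+ library was above every CD24- library. The difference was small, at 0.35 ± 0.08 on the log2 scale (SE; adjusted p = 0.00487, edgeR), or 1.28-fold.

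Tgfbr3, the coreceptor (chr5:107106570-107289629, minus strand), had 65.5, 67.4 and 50.1 CPM in CD24- replicates 1, 2 and 3 and 58.4, 83.7 and 82.8 CPM in CD24+ replicates 1, 2 and 3. CD24+ replicates 2 and 3 were above all CD24- libraries and CD24+ replicate 1 was not. With a log2 fold change of 0.31 (95% interval -0.03 to 0.64) it did not pass (adjusted p = 0.121, edgeR), and without CD24+ replicate 1, the shallowest library, it passed at 0.44 (adjusted p = 0.0211). Of its reads, 7.12% also match transcripts of other genes.

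Smad3 was higher in CD24+ cells and Smad2, its partner as a receptor substrate, did not pass. Smad3 (chr9:63646767-63757994, minus strand), which binds DNA directly, had 148, 148 and 111 CPM in CD24- replicates 1, 2 and 3 and 169.6, 173 and 216 CPM in CD24+ replicates 1, 2 and 3. The groups did not overlap, with CD24- replicate 3 the lowest library and CD24+ replicate 3 the highest. The difference was 0.46 ± 0.13 on the log2 scale (SE; adjusted p = 0.0162, edgeR). It was 0.32 and no longer passed without CD24+ replicate 3 (adjusted p = 0.0852), and it was 0.33 and passed without CD24- replicate 3 (adjusted p = 0.0316).

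Smad2, on chromosome 18, had 66.0, 67.8 and 81.4 CPM in CD24- replicates 1, 2 and 3 and 69.2, 67.4 and 62.4 CPM in CD24+ replicates 1, 2 and 3. The groups overlapped, and CD24- replicate 3 was the highest library. Its log2 fold change of -0.11 had a 95% interval of -0.34 to 0.11 (adjusted p = 0.374, edgeR), and it was -0.015 without CD24- replicate 3 and -0.17 without CD24- replicate 1.

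Smad7, the inhibitory Smad and a direct target of the pathway, also lies on chromosome 18. It had 18.4, 15.1 and 41.9 CPM in CD24- replicates 1, 2 and 3 and 25.0, 38.2 and 25.3 CPM in CD24+ replicates 1, 2 and 3. CD24- replicate 3 held the highest value of all libraries while the other CD24- libraries held the lowest. The log2 fold change was 0.26 (95% interval -0.47 to 0.99, adjusted p = 0.544, edgeR). The value moved with several libraries. It was 0.84 and passed without CD24- replicate 3 (adjusted p = 0.00622), and it was 0.075 without CD24- replicate 1, -0.015 without CD24- replicate 2 and 0.0055 without CD24+ replicate 2.

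Tgfbi (chr13:56609523-56639562, plus strand) was almost unread in CD24- cells. It had 0, 0 and 1 reads in CD24- replicates 1, 2 and 3 and 2, 26 and 40 reads in CD24+ replicates 1, 2 and 3. Every CD24+ library was above every CD24- library, but CD24+ replicate 1 reached only 0.315 CPM against 1.47 and 2.10 CPM in replicates 2 and 3. Tgfbi was therefore left out of the test by the filter on low counts. The ratio of summed reads per TMM-scaled gene read was 45.6, with an exact 95% interval of 7.91 to 1827 that covers counting error only. The ratio was 29.0 without CD24- replicate 2, and without CD24- replicate 3 no CD24- read was left. Without the filter edgeR called it higher (adjusted p = 2.32e-04).

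**Figure D2:**
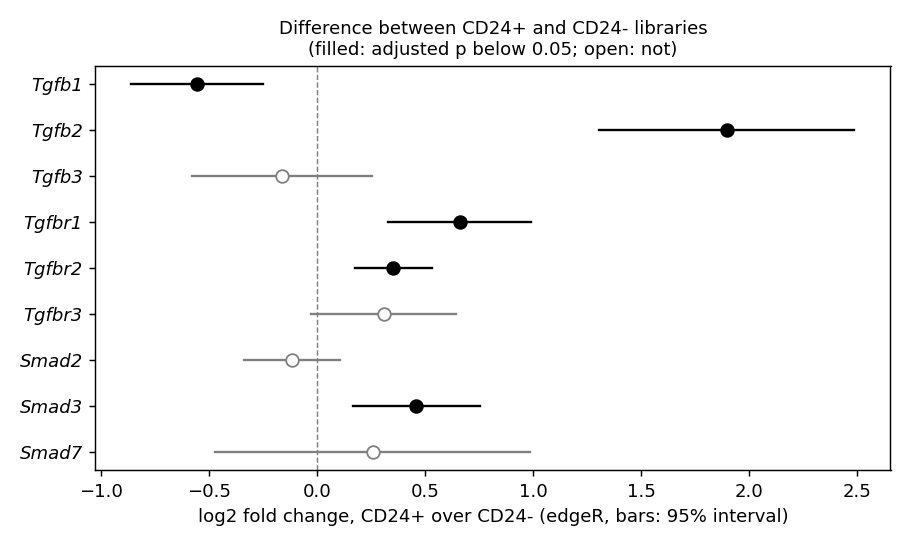
Log2 fold change of CD24+ over CD24- cells for the 9 tested genes (x axis, edgeR), with bars for the 95% interval and filled points for an adjusted p below 0.05. Tgfb2 lies farthest from 0 at 1.90, Tgfb1 is the called gene below 0 at -0.56, and the bar of Smad7 is the widest, from -0.47 to 0.99.

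Levels of different genes were compared as CPM per kb of the transcript span that the deposited assignment covers. In CD24- cells Tgfb1 was at 51.4 ± 8.29, Tgfb3 at 30.4 ± 7.98 and Tgfb2 at 0.523 ± 0.0917 CPM per kb (SD, n = 3), with no overlap between neighbours. In CD24+ cells they were at 35.3 ± 5.24, 27.2 ± 5.01 and 1.96 ± 0.500 CPM per kb, in the same order, but the libraries of Tgfb1 and Tgfb3 overlapped. Within each CD24+ library Tgfb1 was above Tgfb3, by least in replicate 3 (34.5 and 32.7 CPM per kb). Tgfb2 was thus the least abundant ligand in both groups.

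Tgfbr2 led the receptors in both groups, at 32.1 ± 1.94 CPM per kb in CD24- and 40.9 ± 2.07 CPM per kb in CD24+ cells (SD, n = 3). Tgfbr3 and Tgfbr1 followed at 10.2 ± 1.58 and 8.89 ± 2.17 CPM per kb in CD24- cells and at 12.5 ± 2.39 and 14.0 ± 0.991 CPM per kb in CD24+ cells. These last receptors overlapped in each group, so their change of order lies within the spread. Smad2 and Smad3 were at 27.6 ± 3.24 and 26.7 ± 4.28 CPM per kb in CD24- cells, with overlapping libraries. In CD24+ cells Smad3, at 36.7 ± 5.10 CPM per kb, lay above Smad2, at 25.5 ± 1.36 CPM per kb, in every library. The order of Smad2 and Smad3 depends on the stretch compared. In its coding sequence (1404 nt) Smad2 had 48.8, 45.8 and 42.3 CPM in CD24+ replicates 1, 2 and 3. Smad3 had 35.4, 37.5 and 43.2 CPM in its own (1278 nt). In CD24- replicates 1, 2 and 3 these coding values were 46.5, 46.8 and 55.7 CPM for Smad2 and 32.1, 32.2 and 25.9 CPM for Smad3. Smad7 was lower, at 5.88 ± 3.43 and 6.90 ± 1.76 CPM per kb in CD24- and CD24+ cells.

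The make-up of each family was expressed as a share of its summed CPM per kb. Tgfb1 made up 61.9%, 60.9% and 65.6% of the ligands in CD24- replicates 1, 2 and 3 and 59.4%, 55.6% and 49.6% in CD24+ replicates 1, 2 and 3. The groups did not overlap. The share of Tgfb2 was 0.524%, 0.506% and 0.978% in CD24- replicates 1, 2 and 3. In CD24+ replicates 1, 2 and 3 it was 3.10%, 2.54% and 3.38%, again without overlap. The share of Tgfb3 was 36.5% ± 2.75 in CD24- and 42.1% ± 4.78 in CD24+ cells (SD, n = 3), with overlap.

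Smad2 made up 46.5%, 47.1% and 59.0% of the summed CPM per kb of Smad2 and Smad3 in CD24- replicates 1, 2 and 3 and 44.4%, 43.2% and 36.1% in CD24+ replicates 1, 2 and 3. The CD24- libraries lay above the CD24+ libraries, by little for replicates 1 and 2. Receptor shares overlapped between the groups for all 3 receptors, and that of Tgfbr2 was 62.7% ± 0.921 in CD24- and 60.8% ± 1.84 in CD24+ cells (SD, n = 3). An exact two-sided permutation test of 3 libraries against 3 cannot go below p = 0.1, which Tgfb1, Tgfb2 and Smad2 reached (adjusted p = 0.233 over the 7 shares tested). The other shares had p from 0.2 to 0.6 in the same exact test. With each distinct sequence counted once, the groups overlapped for Tgfb1 (exact p = 0.2) and the share of Tgfbr1 reached p = 0.1.

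**Figure D3:**
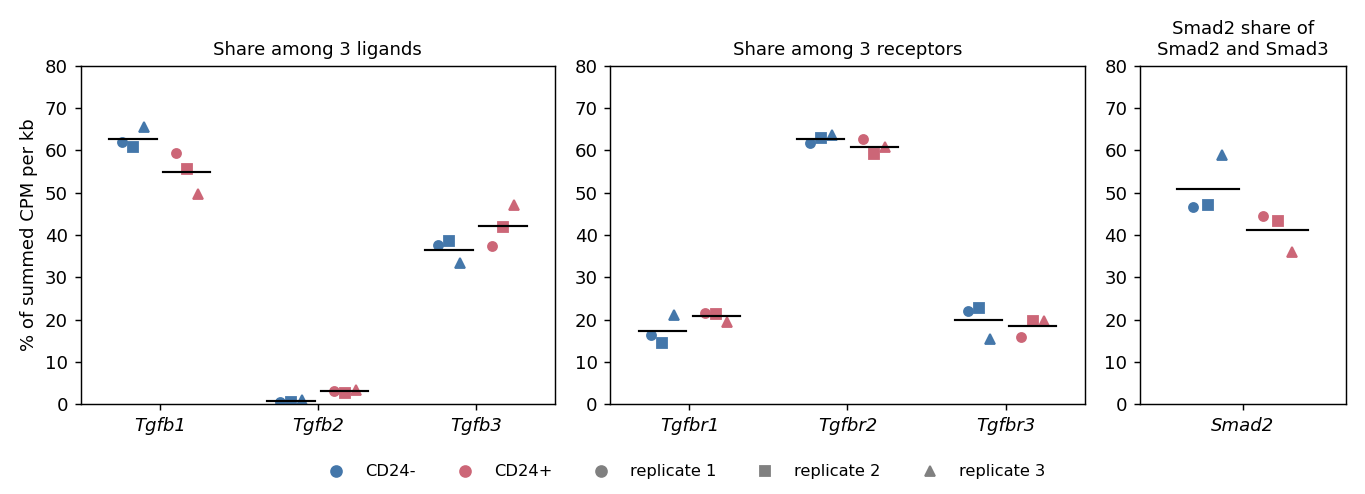
Share of each gene in the summed CPM per kb of its family (y axis, %), for the 3 ligands, the 3 receptors, and Smad2 of Smad2 and Smad3, with blue CD24- and red CD24+ libraries and a line at each mean. The shares of Tgfb1 and Smad2 are lower and that of Tgfb2 is higher in every CD24+ library, and the receptor shares overlap.

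Reads of each gene were next divided by the region of its main GENCODE transcript, to see whether coding and untranslated parts gave the same difference. For Tgfb2 the log2 ratio of mean CPM was 1.86 in the coding sequence and 1.82 in the 3′ UTR. Tgfbr1 gave 0.67 in both regions, Tgfbr2 0.37 and 0.34, and Smad3 0.36 and 0.49, in each case with no overlap between the groups. Tgfb1 gave -0.61 in the 5′ UTR, where the groups did not overlap, and -0.49 in the coding sequence, where CD24- replicate 3 at 46.3 CPM fell below CD24+ replicate 1 at 48.4 CPM. Each called gene therefore moved the same way in the regions compared. Most reads of Tgfbr1 (76.9%) and Smad3 (72.5%) lay in the 3′ UTR, while 68.7% of Smad2 reads lay in the coding sequence. The reads assigned to Smad2 and Tgfbr2 stop within the 3′ UTR, at nt 2898 of 8089 and nt 4689 of 8092 of the transcript, and 1 read of Tgfb1 fell in its 3′ UTR.

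A few deposited sequences show what was counted. They are coding reads of genes that moved, written in the sense of the transcript and placed by the authors on mm9.
Tgfb1 read: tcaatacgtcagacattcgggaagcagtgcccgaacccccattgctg
Tgfbr2 read: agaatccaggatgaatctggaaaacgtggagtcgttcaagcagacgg
The Tgfb1 read lies at chr7:26477443-26477489 and was seen 33 times in all libraries, 5, 2 and 4 times in CD24- replicates 1, 2 and 3 and 4, 10 and 8 times in CD24+ replicates 1, 2 and 3. The Tgfbr2 read lies at chr9:116014211-116014257 and was seen 39 times, 2, 3 and 9 times in CD24- and 2, 12 and 11 times in CD24+ replicates 1, 2 and 3. These counts are not scaled to depth, and those of the Tgfb1 read do not show the fall of the gene. One sequence holds few reads, and the gene values above sum 1989 distinct sequences for Tgfb1 and 4004 for Tgfbr2.

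**Figure D4:**
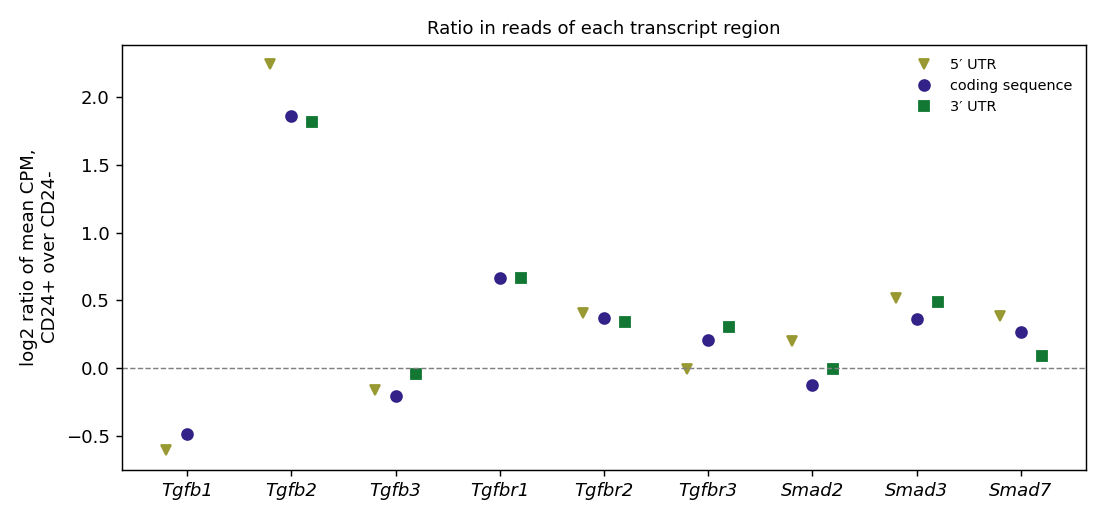
Log2 ratio of the mean CPM of CD24+ over CD24- libraries (y axis) in reads of the 5′ UTR, the coding sequence and the 3′ UTR of each gene, where a region had enough reads. The coding and 3′ UTR points of Tgfb2 lie at 1.86 and 1.82 and those of Tgfbr1 both at 0.67.

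Around the ligands, most genes of latency and activation were higher in CD24+ cells. Of 13 listed genes 9 were tested, 7 were higher, 1 was lower and 1 did not pass, with a median log2 fold change of 1.40 beside 0.02 over all genes and 88.9% called beside 46.1%. This list and those below were written with earlier results of these data known, so their shares describe the lists and are no test of them. With each distinct sequence counted once, 5 of 8 tested were called, beside 33.4% of all genes. Itgb8, an integrin chain that helps to free latent TGF-beta, had 0, 2 and 0 reads in CD24- and 7, 27 and 30 in CD24+ replicates 1, 2 and 3. The ratio of its summed reads per gene read was 21.5 (exact 95% interval 5.70 to 181, counting error only), and both CD24- reads came from replicate 2. Itgb8 passed the filter on low counts through its CD24+ libraries. Emilin1, a matrix protein that limits processing of the precursor, had 4.06 ± 1.77 CPM in CD24- and 35.4 ± 7.74 CPM in CD24+ cells (SD, n = 3) and a log2 fold change of 3.10 (adjusted p = 8.52e-06, edgeR). Itgav, the integrin chain that pairs with Itgb8, was lower, from 439 ± 16.6 to 362 ± 11.7 CPM, with a log2 fold change of -0.28 (adjusted p = 0.0117, edgeR). It did not pass without CD24- replicate 1 (-0.26, adjusted p = 0.0671).

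Receptor partners moved both ways. Of 14 listed genes 12 were tested, 5 were higher, 2 were lower and 5 did not pass, and the median log2 fold change was 0.20. The share called was 58.3%, beside 46.1% of all genes. Of the called genes, Dcn, Bgn and Acvr1c passed the filter on low counts through their CD24+ libraries and Bambi through its CD24- libraries. With a minimum of 5 CPM in 3 libraries, chosen after seeing the data, 3 of 7 tested were called, beside 45.7% of all genes. Dcn and Bgn, small proteoglycans that bind TGF-beta, had 1, 1 and 0 and 1, 2 and 0 reads in CD24- replicates 1, 2 and 3. In CD24+ replicates 1, 2 and 3 Dcn had 13, 18 and 59 reads and Bgn 10, 49 and 62 reads. The ratios of summed reads per gene read were 30.2 (exact 95% interval 8.11 to 253) for Dcn and 27.0 (9.03 to 133) for Bgn. Without CD24+ replicate 3, which held 59 of the 90 CD24+ reads of Dcn, its ratio was 18.6 and it had too few reads for the test. With only reads that match a single GENCODE gene, Dcn had 1, 0 and 0 reads in CD24- and 12, 16 and 60 in CD24+ replicates 1, 2 and 3 and was again not tested. Another of the 5 higher genes, Acvr1c, named after its values were seen, kept 1 of its 72 reads in that count, so its call rests on reads outside such a match. The ratio of Bgn was 51.5 without CD24- replicate 2. Bambi, a pseudoreceptor that blocks signaling, was lower in CD24+ cells, from 3.24 ± 0.496 to 0.376 ± 0.210 CPM (SD, n = 3), with a log2 fold change of -2.88 (adjusted p = 7.85e-05, edgeR). Acvr1b, a type I receptor for activins, was lower by a log2 fold change of -0.51 (adjusted p = 0.0156, edgeR), and did not pass without CD24- replicate 2 (-0.39, adjusted p = 0.0781).

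Of 20 Smad partners 19 were tested, 6 were higher, 3 were lower and 10 did not pass, a share of 47.4% called that is near the 46.1% of all genes. Their median log2 fold change was 0.03. Of the 6 higher genes, Pmepa1 passed the filter on low counts through its CD24+ libraries. Smad4, the common partner of Smad2 and Smad3, had 108, 114 and 121 CPM in CD24- and 129, 124 and 129 CPM in CD24+ replicates 1, 2 and 3. Its groups did not overlap, but a log2 fold change of 0.16 (95% interval -0.01 to 0.33) did not pass (adjusted p = 0.115, edgeR). Smad6, the other inhibitory Smad, had 2.31, 2.94 and 3.04 CPM in CD24- and 5.03, 9.09 and 7.23 CPM in CD24+ replicates 1, 2 and 3 and was higher by a log2 fold change of 1.41 (adjusted p = 0.00112, edgeR). Zfyve9 (SARA), which brings Smad2 and Smad3 to the receptor, rose from 2.64 ± 0.614 to 27.5 ± 1.87 CPM (SD, n = 3; log2 fold change 3.37, adjusted p = 2.20e-07, edgeR).

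Pmepa1, a target that holds Smad2 and Smad3 back, had 0, 1 and 2 reads in CD24- and 8, 34 and 35 in CD24+ replicates 1, 2 and 3, a ratio of 17.2 per gene read (exact 95% interval 5.67 to 85.3), which was 35.8 without CD24- replicate 3 and 11.6 without CD24- replicate 1. Nedd4l, a ubiquitin ligase for Smads, and Tgif2, a Smad corepressor, were the Smad partners with the largest falls, with log2 fold changes of -1.10 (adjusted p = 5.42e-06) and -0.67 (adjusted p = 6.10e-04, edgeR). With only reads that match a single GENCODE gene, Tgif2 had a log2 fold change of -0.58 and did not pass (adjusted p = 0.106).

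Genes that TGF-beta is known to induce moved in both directions. Of 24 listed genes 22 were tested, 12 were higher, 3 were lower and 7 did not pass, with a median log2 fold change of 0.74. The share called was 68.2%, beside 46.1% of all genes, of which 23.8% were higher and 22.3% lower. Of the called genes, Tgfb1i1, Acta2, Snai2, Col1a1 and Col1a2 passed the filter on low counts through their CD24+ libraries. Il11 passed it through its CD24- libraries. With a minimum of 5 CPM in 3 libraries, chosen after seeing the data, 11 of 17 tested were called, beside 45.7% of all genes. Cdh2, Lox, Sphk1, Acta2 and Tgfb1i1 passed that minimum through their CD24+ libraries. Tgfb1i1 (Hic-5), a focal adhesion protein, rose from 0.484 ± 0.0386 to 7.49 ± 1.69 CPM (SD, n = 3; log2 fold change 3.92, adjusted p = 5.01e-06, edgeR). Acta2, smooth muscle actin, rose from 0.551 ± 0.386 to 8.01 ± 3.83 CPM (SD, n = 3; log2 fold change 3.87, adjusted p = 1.57e-04, edgeR). The CD24- values rest on few reads, 5, 5 and 4 for Tgfb1i1 and 1, 8 and 7 for Acta2 in replicates 1, 2 and 3. Il11, a cytokine, moved the other way, with 13, 12 and 28 reads in CD24- and 3, 0 and 5 reads in CD24+ replicates 1, 2 and 3 and a log2 fold change of -3.23 (adjusted p = 0.00412, edgeR), which was -2.50 without CD24+ replicate 2.

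Of 6 genes known to be repressed 5 were tested, 1 was higher, 2 were lower and 2 did not pass, and the median log2 fold change was -0.48. These few genes had a share called of 60.0%, beside 46.1% of all genes. With a library left out, 1 to 4 of these 5 were lower: 4 without CD24+ replicate 2 (beside 21.7% of all genes), and 1 without CD24- replicate 3, CD24+ replicate 1 or CD24+ replicate 3. Myc was the largest fall, with 988, 937 and 767 CPM in CD24- and 193, 276 and 285 CPM in CD24+ replicates 1, 2 and 3 (log2 fold change -1.83, adjusted p = 5.77e-06, edgeR). Reads of a Myc transgene and of the mouse gene cannot be told apart in these counts. Sums of markers of other cell types also differed between the groups, each carried by few of its genes. Summed fibroblast markers were 5.97 to 11.1 CPM in CD24- and 24.3 to 28.1 CPM in CD24+ libraries. Of the 5, Pdgfra and Pdpn were higher, Fap had 2 reads in all and Thy1 and Lum had none. Summed leukocyte markers were 43.4 to 76.1 CPM in CD24- and 7.17 to 9.44 CPM in CD24+ libraries, nearly all of it Cd68, while Ptprc and Csf1r had 2 and 6 reads and Adgre1 and Cd3e none. The 4 basal markers summed to 0.210 to 0.474 and 1.10 to 1.62 CPM, and the 4 endothelial markers to 2.25 to 3.98 and 0.681 to 1.89 CPM, in CD24- and CD24+ libraries. No basal marker had enough reads for the test. Trp63 had 3 reads in CD24- and 51 in CD24+ libraries, and Oxtr had 8 and 3. Krt5 and Krt14 had 1 and 3 reads in all. Cdh5 was lower (54 and 8 reads), Tek did not pass (adjusted p = 0.375, edgeR), Pecam1 had 4 and 5 reads and Kdr 2 and 0. The part of other cell types in the results was not tested.

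**Figure D5:**
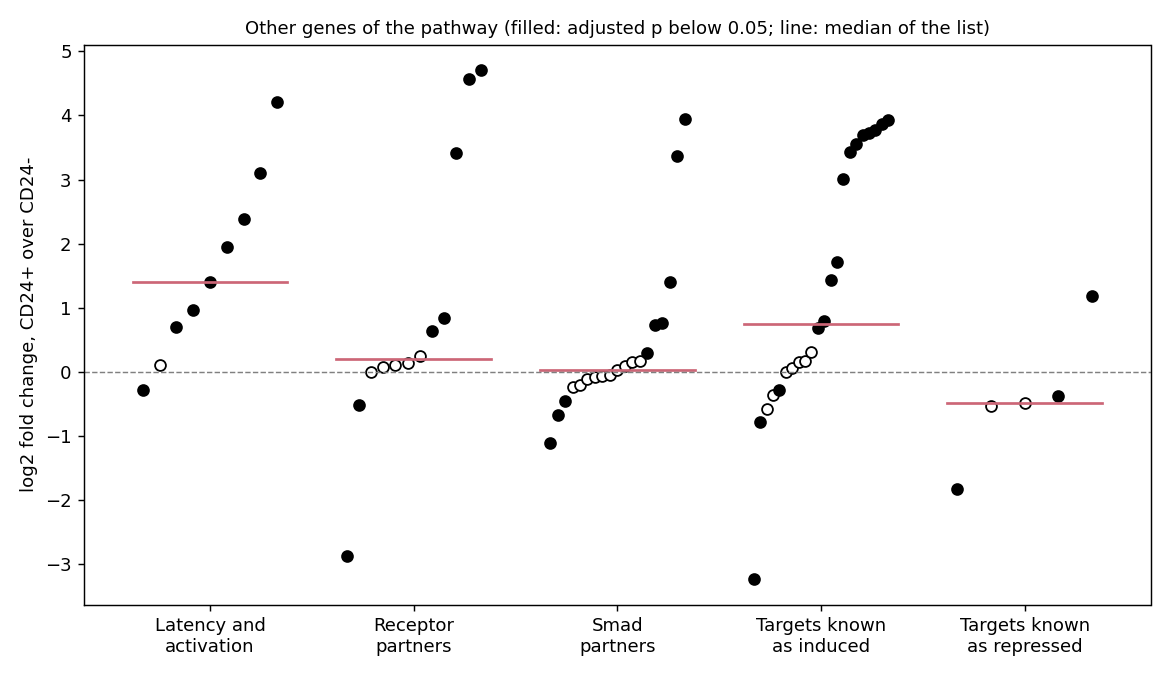
Log2 fold change of CD24+ over CD24- cells (y axis, edgeR) for each tested gene of the 5 lists, filled where the adjusted p was below 0.05, with a red line at the median of each list. Genes of latency and activation lie mostly above 0 (median 1.40), Smad partners lie around it (median 0.03), and the values of Itgb8, Dcn, Bgn and Pmepa1, with at most 3 reads in CD24- cells, depend on the prior count of the fit.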

How the data were processed

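The authors sequenced 51-nt single-end reads, trimmed 2 nt from each end, collapsed identical 47-nt reads and mapped them by exact match, to mm9 per the submitters' processing notes. They gave each sequence 1 location and 1 annotation (source not given in the sources used here) and deposited its counts per library, neither normalized nor pooled. An exact match misses reads across exon junctions and variants, and strand was not used.

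Counts were summed per annotation. Reads of repeats (5.93% to 7.83%), of structural or small RNA (1.22% to 3.94%) and without annotation (16.9% to 20.2%) were left out of library sizes and tests. Genes passing filterByExpr (minimum count 10, total 15) were compared with edgeR 4.0.16 (TMM, quasi-likelihood F test, Benjamini-Hochberg over 11125 genes, threshold 0.05) in R 4.3.3, a script that was tested on simulated data. The exact intervals of read ratios cover counting error only, and those of log2 fold changes come from the fit and include the spread between plates. The ratios with a library left out were added after seeing the data. Locations, transcripts and lengths are of GENCODE M21 (GRCm38), to which reads were matched by exact sequence. Each share was tested by an exact permutation test (scipy 1.17.1).

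Named genes are Cd24a, the 10 members, Smad4, Smad6 and, per list, the 2 largest increases and decreases among called genes without overlap between groups. Induced and repressed targets counted as 1 list for this. The members, the lists (written from general knowledge) and the tests were chosen with earlier results of these data known. Alternatives were DESeq2 1.42.0, other scalings and filters, distinct sequences, reads matching a single GENCODE gene, a replicate block and each library left out. Same-numbered libraries did not deviate together (correlation -0.31 to 0.01), so the numbers were not used to pair them.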

Additional observations from a re-analysis of the deposited data

How the results depend on the processing

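Of the members, 5 were called under DESeq2, both other scalings, a minimum of 5 CPM in 3 libraries, distinct sequences, single-gene reads and the replicate block, 6 without a filter (with Tgfbi) and 4 to 7 with a library left out. Tgfb2, one of the 5, met the minimum of 5 CPM only through its CD24+ libraries. Of all genes tested, 33.4% were called with distinct sequences, 37.2% without a filter, 36.1% to 47.4% with a library left out, and 40.4% to 46.4% in the others. A minimum of 1 CPM in 3 libraries repeated the fit as reported and is not counted here. Tgfbi passed the filter, and was called, without CD24- replicate 1, 2 or 3 or CD24+ replicate 1. In each of these fits it passed only through CD24+ replicates 2 and 3, and it is counted there among the members called. The replicate block gave 4493 called genes against 5127 and changed no call of a named gene. Libraries of the same number share only that number, with correlations of their deviations of 0.01, -0.25 and -0.31. The log2 fold change of Smad7 ran from -0.015 to 0.84 with a library left out, turning below 0 without CD24- replicate 2. With distinct sequences counted once, 5 of 8 tested latency and activation genes were called in place of 8 of 9, and Itgav (-0.19, adjusted p = 0.166) and Acvr1b (-0.35, adjusted p = 0.144) did not pass in edgeR. With the minimum of 5 CPM, chosen after seeing the data, 3 receptor partners were called in place of 7, since 7 rather than 12 were tested. Of all genes, 45.7% were called in that fit. Repressed targets called were 5 with no filter, in place of 3, and 2 to 5 with a library left out. Among genes with few reads in a group, the fitted log2 fold change of Itgb8 was 7.17 and that of Bgn 5.38 without CD24- replicate 2, and that of Pmepa1 4.89 without CD24- replicate 3. Of 368 values for named genes under the alternatives, 359 kept their direction and side of the threshold. The cause of the other changes was not tested. The shares kept their direction with distinct sequences, with single-gene reads, with no division by length and with a library left out. Counting error limits Tgfb2 (18 to 23 reads in a CD24- library), Tgfbi, Itgb8, Dcn, Bgn, Acvr1c, Bambi, Pmepa1, Tgfb1i1, Acta2, Snai2 and Il11. The exact permutation test cannot pass 0.05 at this number of libraries.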

Other observations

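Other genes of the lists were looked at after their values were seen. In CD24+ cells the latent TGF-beta binding proteins Ltbp1, Ltbp3 and Ltbp4 were higher, with log2 fold changes of 0.97 (adjusted p = 1.57e-05), 0.70 (adjusted p = 0.00162) and 2.39 (adjusted p = 8.12e-05, edgeR). Thbs1, a matrix protein that can activate latent TGF-beta, had 200, 188 and 193 CPM in CD24- and 362, 541 and 621 CPM in CD24+ replicates 1, 2 and 3. Its log2 fold change was 1.40 (adjusted p = 6.70e-05, edgeR). Among induced targets, Fn1 rose from 206 ± 26.6 to 1659 ± 264 CPM (SD, n = 3; log2 fold change 3.01, adjusted p = 1.45e-07, edgeR), and Cdh2, Lox, Sphk1, Snai2 and Col3a1 had log2 fold changes of 3.43 to 3.77. In CD24- replicates 1, 2 and 3 Snai2 had only 5, 4 and 4 reads, and Col3a1 had 135, 155 and 31 reads. Snai2 passed the filter on low counts through its CD24+ libraries. Ctgf and Cdkn1a, also known as targets of the pathway, did not pass, with log2 fold changes of 0.32 (adjusted p = 0.135) and -0.36 (adjusted p = 0.115, edgeR). Besides Il11, the induced targets Timp1 and Junb were lower, with log2 fold changes of -0.78 (adjusted p = 0.00912) and -0.28 (adjusted p = 0.0489, edgeR). Skil, a corepressor, was higher by 0.73 on the log2 scale (adjusted p = 0.00137, edgeR).

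CD24- replicate 3 differed from the other CD24- libraries in several genes of the pathway, which were chosen after their values were seen and not tested. Smad7 was at 41.9 CPM there and at 18.4 and 15.1 CPM in replicates 1 and 2. Id1 was at 157 CPM against 82.5 and 86.7 CPM, Id3 at 192 CPM against 124 and 137 CPM, and Ctgf at 93.1 CPM against 63.4 and 62.9 CPM. Tgfb1, Tgfb3 and Smad3 were lower in that library than in either other CD24- library.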
